A study of Mus musculus with 9 samples.

Results

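The 10 genes described here belong to bone morphogenetic protein (BMP) signalling and to the inhibitor of DNA binding (ID) family. They were found by their exact gene names in the deposited count table, where each of the 10 names matched a single gene among 55401. The series profiled poly(A) RNA of primary ventricular myocyte cultures made from 1-day-old wild-type C57BL/6J mice and grown in DMEM with 10% fetal bovine serum. It holds 3 groups of 3 libraries. The control group stayed at normal oxygen in complete medium. The hypoxia group was moved to DMEM without glucose or serum and kept for 6 h in a sealed AnaeroPack chamber. The hypoxia + rSRGN group had the same treatment with recombinant serglycin, a proteoglycan core protein, in the medium; its dose is not given in the sources used here. Oxygen, glucose and serum changed together, so their parts in any difference from control cannot be told apart. Library totals ran from 21669017 to 22781557 counts in control, from 16583985 to 18148474 in hypoxia and from 16640239 to 20826701 in hypoxia + rSRGN. Mitochondrial genes held 8.30% to 9.51% of the counts in control, 5.28% to 5.77% in hypoxia and 4.82% to 5.64% in hypoxia + rSRGN, and 22941 to 23351, 24027 to 24690 and 23892 to 24480 genes had a count; control stood apart from the other groups in both, and their part in the gene results was not tested. Nothing in the labels says that the 3 libraries of a group came from separate cultures, so p-values measure the spread between these libraries, which may be technical.

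BMP ligands are secreted dimers that bring type I and type II serine/threonine kinase receptors together. The activated type I receptor phosphorylates the SMAD proteins of the BMP branch, which join the shared partner SMAD4, enter the nucleus and switch on target genes, among them the ID genes and the inhibitory SMADs that feed back on the pathway. ID proteins carry a helix-loop-helix without a DNA-binding region and hold basic helix-loop-helix factors away from DNA, and BMP10 is known for its role in the growth of the embryonic and fetal heart muscle wall.

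Cell type markers are given ahead of the pathway genes, to describe which RNA the libraries held. Of 12 cardiomyocyte markers, 12 fell in the hypoxia libraries by edgeR's quasi-likelihood test (25.1% of all genes tested fell), and their median log2 fold change was -3.70. Their summed level, in counts scaled to library size with TMM factors (CPM), was 45454, 53028 and 55801 in the control libraries, 5707, 5625 and 3766 CPM in hypoxia and 7725, 7271 and 7454 CPM in hypoxia + rSRGN. All 3 groups thus held cardiomyocyte RNA, with the 3 control libraries far above the others and the 3 hypoxia + rSRGN libraries above the 3 hypoxia libraries. The most abundant marker per length was Actc1, cardiac actin, at 4998 ± 397 CPM per kilobase in control, 451 ± 129 in hypoxia and 685 ± 41.7 in hypoxia + rSRGN (mean ± SD, n = 3). In bulk RNA, fewer cells of a type and less RNA per cell cannot be told apart.

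Markers of other cell types were also present; the leading gene of a list is the one with the highest mean CPM per kilobase over the 9 libraries. The 8 fibroblast markers summed to 8657, 9909 and 10243 CPM in control, 19890, 17098 and 19206 CPM in hypoxia and 18917, 19478 and 19148 CPM in hypoxia + rSRGN, led by Col1a1. The 4 epicardial markers summed to 206, 190 and 179 CPM in control, 764, 832 and 841 CPM in hypoxia and 785, 713 and 789 CPM in hypoxia + rSRGN, led by Upk1b. Both sums were therefore higher in all 6 hypoxic libraries than in the 3 control libraries. In hypoxia against control 4 of the 4 epicardial and 6 of the 8 fibroblast markers rose (26.4% of all genes), the latter with a median log2 fold change of 0.90, while Pdgfra (0.19) and Lum (0.29) were below the fold limit. The 7 macrophage markers, led by Lyz2, summed to 225, 235 and 240 CPM in control, 24.3, 25.4 and 26.9 CPM in hypoxia and 33.8, 32.2 and 28.5 CPM in hypoxia + rSRGN, and 3 of them (Adgre1, Ptprc and C1qa) had a count of 0 in at least 1 library. The 4 atrial markers, led by Nppa, summed to 3691, 3945 and 4132 CPM in control, 1008, 581 and 528 CPM in hypoxia and 1491, 1268 and 1047 CPM in hypoxia + rSRGN. The 10 endothelial and endocardial markers, led by Tek, summed to 79.1, 99.0 and 110 CPM in control, 71.3, 56.9 and 59.0 CPM in hypoxia and 72.6, 74.8 and 62.4 CPM in hypoxia + rSRGN; in control Cdh5, at 4.91 CPM per kilobase, was above Tek at 3.57. The macrophage and atrial sums were lower in every hypoxic library than in control, and so was the endothelial sum. Of the 10 endothelial and endocardial markers 7 fell in hypoxia against control (25.1% of all genes), with a median log2 fold change of -1.08, while Tek (0.09), Egfl7 (0.17) and Npr3 (0.49) were not called. The 6 smooth muscle and pericyte markers, led by Pdgfrb, summed to 442, 534 and 510 CPM in control, 553, 540 and 538 CPM in hypoxia and 694, 731 and 693 CPM in hypoxia + rSRGN. Of these 6 markers 2 rose and 1 fell in hypoxia against control (26.4% and 25.1% of all genes), so their sum joins genes that went both ways. Pdgfrb (log2 fold change 0.67) and Tagln (1.47) rose. Cnn1 (-0.84) fell, with control and hypoxia libraries that overlapped. Tagln and Cnn1 were named after their values were seen. The part of the cell type make-up in the gene results that follow was not tested.

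**Figure D1:**
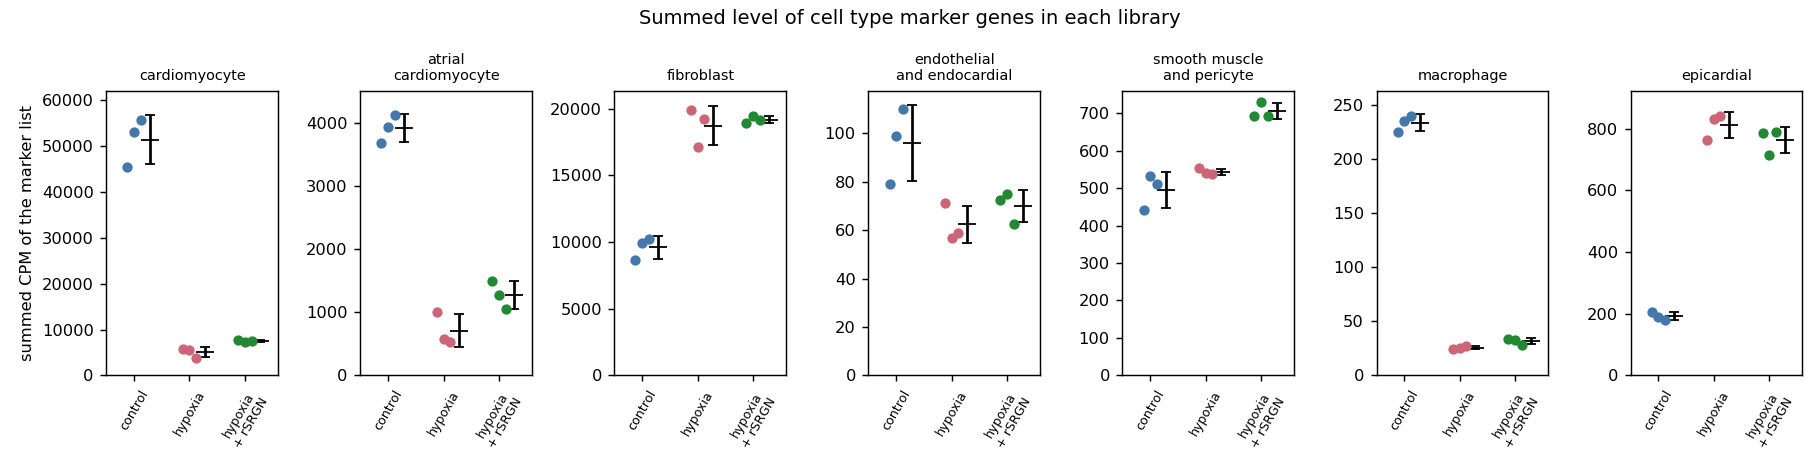
Summed CPM (vertical axes, each from 0) of 7 cell type marker lists in the 9 libraries; points are libraries, bars are mean and SD of 3 libraries. The cardiomyocyte sum is 45454 to 55801 CPM in control and 3766 to 5707 CPM in hypoxia, while the fibroblast and epicardial sums are higher in the hypoxic groups.

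Genes known to respond to low oxygen went both ways. Of 10 such genes, 4 were higher and 4 lower in hypoxia than in control, beside 26.4% and 25.1% of all genes. The count of lower genes depended on control libraries, as Slc2a1 and Egln3, named after their values were seen, show. Slc2a1 (log2 fold change -0.72) lost its call without control replicate 3 (-0.52). Egln3 (-0.39) was not called, but was called lower without control replicate 1 (-0.81). It was at 10.1, 22.4 and 49.8 CPM in control and 19.2, 23.5 and 19.8 CPM in hypoxia. Pdk1, which slows pyruvate entry into mitochondria, was at 75.0, 82.6 and 104 CPM in control and 10.2, 10.6 and 10.5 CPM in hypoxia. Bnip3, a mitophagy receptor, was at 29.7, 50.03 and 77.1 CPM in control and 13.3, 10.9 and 11.4 CPM in hypoxia. Ankrd37 was also lower, with a log2 fold change of -2.96 (SE 0.60, adjusted p = 1.4e-04). Ndrg1, in contrast, was at 25.3, 28.5 and 36.2 CPM in control and 77.4, 95.3 and 77.3 CPM in hypoxia. Adm, the vasodilator peptide adrenomedullin, and Car9, a carbonic anhydrase, were higher too, with log2 fold changes of 1.39 and 0.88. Pdk1 and Bnip3 thus went against the usual direction under low oxygen while Ndrg1, Adm and Car9 followed it, and the libraries are called hypoxia here by their label.

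All 10 genes passed the filter on low counts, as did 16762 genes in all. A gene was called when its adjusted p was below 0.05 and its fold change at least 1.5. In hypoxia against control 8 of the 10 were called, against 51.6% of all genes tested: 5 were higher (background 26.4%) and 3 lower (background 25.1%). Bmp2, Bmp4, Smad1, Smad6 and Id4 rose, and Bmp10, Bmpr2 and Id1 fell. The median log2 fold change was 0.63 over the 10 genes and 0.05 over all genes tested. In hypoxia + rSRGN against hypoxia 3 of the 10 were called, against 3.13% of all genes: Bmp10 and Bmpr2 rose (background 2.27% higher) and Id1 fell (background 0.859% lower). The medians were -0.31 and -0.03. These shares moved when 1 library was left out: 381 genes were called higher, and 201 without hypoxia replicate 3, while 144 were called lower, and 70 without hypoxia + rSRGN replicate 2. In hypoxia + rSRGN against control 5 of the 10 were called, against 48.8% of all genes: Bmp2, Bmp4 and Smad1 were higher (background 24.1%) and Bmp10 and Id1 lower (background 24.7%). The comparisons share libraries, the first with the second those of hypoxia and the first with the last those of control, so each gene's values are given side by side below.

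**Figure D2:**
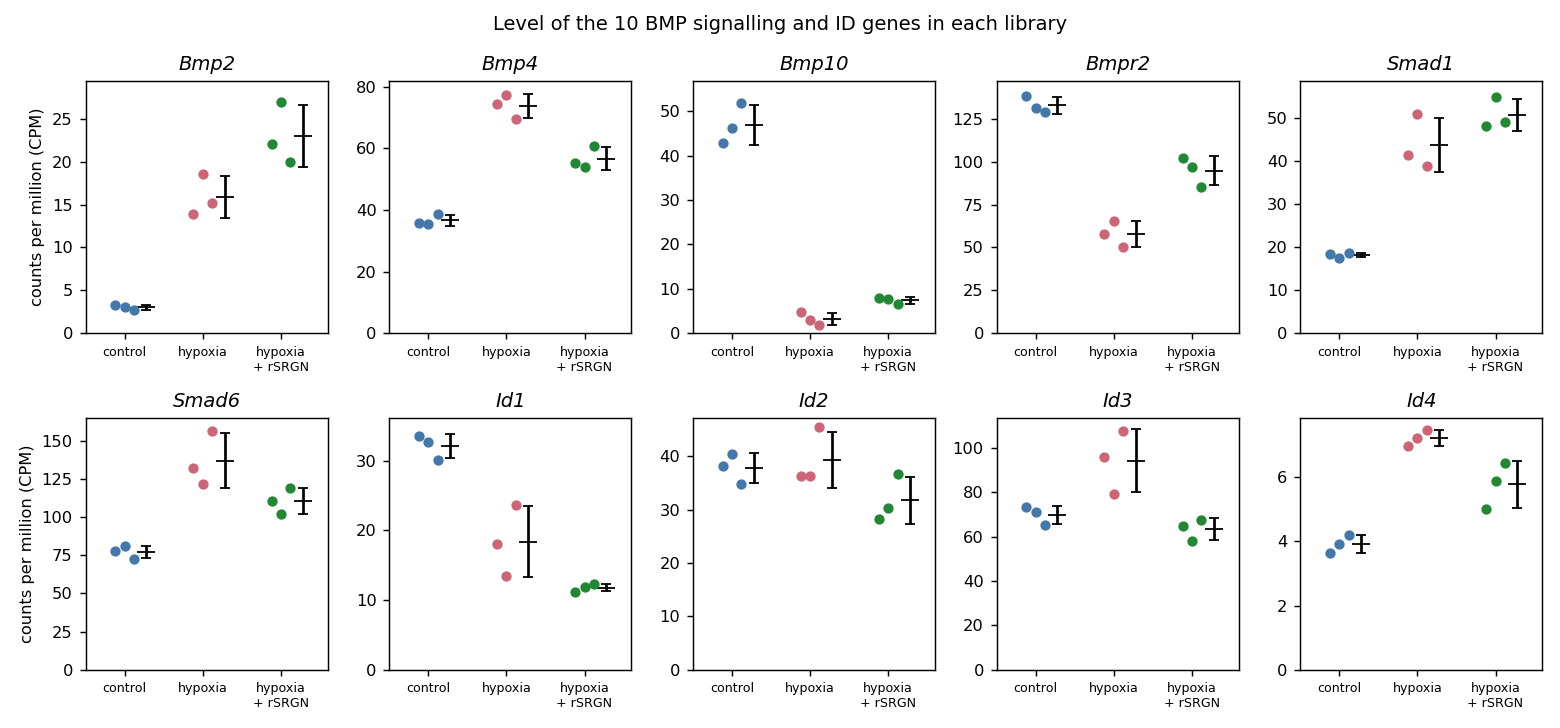
Level of each of the 10 genes in CPM (vertical axes, each from 0) in the 9 libraries; points are libraries, bars are mean and SD of 3 libraries. Bmp10 is at 42.9 to 51.8 CPM in control and 1.91 to 4.67 CPM in hypoxia, while Bmp2 is at 2.66 to 3.33 CPM in control and 13.9 to 18.6 CPM in hypoxia.

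Among the ligands, Bmp10, made by heart muscle cells, was at 42.9, 46.3 and 51.8 CPM in control, 4.67, 2.95 and 1.91 CPM in hypoxia and 7.92, 7.61 and 6.50 CPM in hypoxia + rSRGN. The groups did not overlap: every control library was high, every hypoxia library low, and the rSRGN libraries lay between them. Bmp10 fell in hypoxia against control by 3.87 on the log2 scale (SE 0.18, adjusted p = 1.4e-14). With rSRGN it rose by a log2 fold change of 1.19 (SE 0.20, adjusted p = 4.4e-04) over hypoxia and was still lower than control, at -2.68 (SE 0.16, adjusted p = 1.3e-12). The summed cardiomyocyte markers moved in the same order over the groups, 10.2-fold higher in control than in hypoxia and 1.49-fold higher with rSRGN than without. With rSRGN against hypoxia 10 of the 12 markers were called, all higher (2.27% of all genes), and the median log2 fold change of the 12 was 0.77; the part of this shift in the Bmp10 and Bmpr2 results was not tested.

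Bmp2, a ligand of early heart and valve formation, was at 3.33, 2.98 and 2.66 CPM in control, 13.9, 18.6 and 15.2 CPM in hypoxia and 22.04, 27.0 and 19.9 CPM in hypoxia + rSRGN. Each group lay wholly above the one before it. The log2 fold change was 2.41 (SE 0.16, adjusted p = 9.0e-12) in hypoxia against control and 2.94 (SE 0.16, adjusted p = 2.4e-13) in hypoxia + rSRGN against control. Between the hypoxic groups it was 0.53 (SE 0.13, adjusted p = 0.0085), a 1.45-fold difference that missed the fold limit and reached it without hypoxia replicate 2 (0.66) or without hypoxia + rSRGN replicate 3 (0.64). It was 0.44 without hypoxia replicate 1, and 0.40 with an adjusted p of 0.093 without hypoxia + rSRGN replicate 2; over the alternatives the adjusted p ran from 6.6e-04 to 0.093.

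Bmp4, a ligand of mesoderm and heart development, was at 35.9, 35.5 and 38.7 CPM in control, 74.5, 77.3 and 69.6 CPM in hypoxia and 55.2, 53.9 and 60.8 CPM in hypoxia + rSRGN. Hypoxia was highest and control lowest, with no overlap. It rose in hypoxia by a log2 fold change of 1.01 (SE 0.08, adjusted p = 2.2e-10). The rSRGN libraries differed from hypoxia by -0.38 (SE 0.08, adjusted p = 0.0024), under the fold limit, and were above control by 0.63 (SE 0.08, adjusted p = 5.3e-07). That last call was lost without hypoxia + rSRGN replicate 3 (0.57) and when all genes with at least 1 count were kept (0.58).

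Of 14 BMP ligand genes 9 were tested, and 4 were higher and 4 lower in hypoxia than in control (26.4% and 25.1% of all genes). The 4 lower genes include Bmp3 (log2 fold change -0.64, adjusted p = 0.035), named after its values were seen. Its call was lost with library size alone (-0.57) and with the replicate block (-0.61, adjusted p = 0.051). It was also lost without control replicate 3 (-0.34) or without hypoxia replicate 2 (-0.63) or 3 (-0.58). Bmp7 was at 12.9, 15.9 and 17.2 CPM in control and 0.913, 1.44 and 1.33 CPM in hypoxia, with a log2 fold change of -3.64 (SE 0.25, adjusted p = 1.2e-11). Bmp5 was low throughout, at 1.88 to 2.30 CPM in control and 0.116 to 0.376 CPM in hypoxia. Bmp8a was higher in hypoxia (log2 fold change 2.40, SE 0.69, adjusted p = 0.0037), but it had 1 to 17 counts a library and has a close copy, Bmp8b, so its reads may be shared and its value is uncertain. With rSRGN against hypoxia, Bmp10 was the called gene of the 9 (2.27% of all genes were higher), and the median log2 fold change was 0.00. The count was 2 when a single library was left out in 3 instances: Bmp7 (0.65) joined without hypoxia + rSRGN replicate 1 (0.93), and Bmp2 without hypoxia replicate 2 or hypoxia + rSRGN replicate 3, as given above.

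Bmpr2, the type II receptor of BMP ligands, was at 138, 132 and 129 CPM in control, 57.6, 65.3 and 49.98 CPM in hypoxia and 102, 96.7 and 85.5 CPM in hypoxia + rSRGN. Control was high, hypoxia low and rSRGN between, and no libraries of different groups overlapped. It fell in hypoxia by 1.21 on the log2 scale (SE 0.09, adjusted p = 5.9e-11). It rose with rSRGN over hypoxia by a log2 fold change of 0.72 (SE 0.09, adjusted p = 4.7e-05). Against control the rSRGN libraries differed by -0.49 (SE 0.09, adjusted p = 3.7e-05), a 1.40-fold difference below the fold limit.

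Of 11 receptor and co-receptor genes, all tested, 3 rose and 6 fell in hypoxia (26.4% and 25.1% of all genes), and the median log2 fold change was -0.90. The 6 include Acvr2b (-0.90, adjusted p = 0.027), named after its values were seen, whose control and hypoxia libraries overlapped. Its call was lost without control replicate 1 or 2 or without hypoxia replicate 2 or 3, where the adjusted p ran from 0.075 to 0.12. Bmpr1a, a type I receptor, was at 200, 193 and 208 CPM in control and 81.9, 80.6 and 78.8 CPM in hypoxia (log2 fold change -1.32, SE 0.08, adjusted p = 7.6e-13). Hjv, the BMP co-receptor hemojuvelin of skeletal and heart muscle, was at 72.0, 74.7 and 72.9 CPM in control and 4.46, 4.28 and 4.05 CPM in hypoxia (log2 fold change -4.10, SE 0.11, adjusted p = 5.3e-18). Rgma, a related co-receptor, fell by 1.28 on the log2 scale. Eng, the co-receptor endoglin, was instead at 174, 181 and 169 CPM in control and 427, 403 and 476 CPM in hypoxia (log2 fold change 1.32, SE 0.07, adjusted p = 4.9e-13), and Acvr1, a type I receptor, rose by 1.08. The receptors thus split, with Bmpr1a, Bmpr2, Hjv and Rgma lower and Eng and Acvr1 higher. With rSRGN against hypoxia Bmpr2 was the 1 receptor of 11 called (2.27% of all genes were higher). Bmpr1a was at 117, 120 and 101 CPM with rSRGN, above all hypoxia libraries, with a log2 fold change of 0.48 (SE 0.08, adjusted p = 2.6e-04) that did not reach the fold limit.

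Smad1, which carries the BMP signal to the nucleus, was at 18.3, 17.6 and 18.5 CPM in control, 41.4, 50.8 and 38.9 CPM in hypoxia and 48.2, 54.9 and 49.1 CPM in hypoxia + rSRGN. Both hypoxic groups were above control and overlapped each other. It rose in hypoxia by a log2 fold change of 1.27 (SE 0.10, adjusted p = 3.1e-10) and stood 1.48 (SE 0.10, adjusted p = 2.4e-11) above control with rSRGN. Between the hypoxic groups the difference was 0.22 (95% interval 0.01 to 0.42, adjusted p = 0.15); leaving out hypoxia replicate 2 gave 0.34 and leaving out replicate 3 gave 0.14, and its adjusted p ran from 0.012 to 0.47 over the alternatives.

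Smad6, an inhibitory SMAD and itself a BMP target, was at 77.8, 80.8 and 72.8 CPM in control, 132, 122 and 157 CPM in hypoxia and 111, 102 and 119 CPM in hypoxia + rSRGN. Hypoxia was highest and control lowest, without overlap. It rose in hypoxia by a log2 fold change of 0.83 (SE 0.09, adjusted p = 2.3e-08). The difference of rSRGN from hypoxia was -0.31 (SE 0.09, adjusted p = 0.019) and from control 0.52 (SE 0.09, adjusted p = 1.9e-05), both below the fold limit. The first was -0.20 without hypoxia replicate 3 (adjusted p = 0.15), -0.30 without hypoxia + rSRGN replicate 1 (adjusted p = 0.070) and -0.25 without hypoxia + rSRGN replicate 2 (adjusted p = 0.13); its adjusted p ran from 0.0016 to 0.15 over the alternatives.

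Of 8 SMAD and SMURF genes, 3 were higher and 1 lower in hypoxia (26.4% and 25.1% of all genes). Smad5, which acts beside Smad1, went the other way from it, from 85.2, 86.6 and 90.4 CPM in control to 44.3, 43.2 and 39.0 CPM in hypoxia (log2 fold change -1.05, SE 0.08, adjusted p = 1.0e-10). Smad7, the other inhibitory SMAD, was at 67.3, 58.9 and 57.1 CPM in control and 94.9, 143 and 101 CPM in hypoxia (log2 fold change 0.89, SE 0.11, adjusted p = 2.8e-07). Of the 8, edgeR called 0 and DESeq2 called 0 with rSRGN against hypoxia, while in edgeR 4 had an adjusted p below 0.05 (16.6% of all genes) and 5 an unadjusted p below 0.05 (29.4% of all genes). The count of 0 depended on single libraries: Smurf2, a ubiquitin ligase named after its values were seen, had a log2 fold change of 0.53 and was called without hypoxia replicate 2 (0.64) or without hypoxia + rSRGN replicate 3 (0.60).

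Of 17 secreted or membrane BMP inhibitors and modulators 13 were tested. Among these, 8 were higher and 1 lower in hypoxia (26.4% and 25.1% of all genes), with a median log2 fold change of 0.78. Noggin (Nog), which binds BMP ligands outside the cell, was at 0.809, 0.497 and 0.966 CPM in control and 4.51, 3.81 and 5.79 CPM in hypoxia (log2 fold change 2.63, SE 0.28, adjusted p = 2.1e-08). Chordin (Chrd), another ligand trap, was at 3.10, 2.80 and 4.40 CPM in control and 11.9, 11.6 and 10.8 CPM in hypoxia. Follistatin (Fst), which traps activins and some BMPs, was at 20.3, 16.3 and 15.5 CPM in control and 44.4, 53.7 and 48.7 CPM in hypoxia. Control and hypoxia libraries did not overlap for Nog, Chrd or Fst. Nbl1, Bambi and Bmper also rose, by log2 fold changes of 1.33, 0.91 and 0.87. With rSRGN against hypoxia 1 of the 13 was called (2.27% of all genes were higher), Grem1, named after its values were seen: it was at 3.49, 5.20 and 2.61 CPM in hypoxia and 5.54, 7.28 and 5.07 CPM with rSRGN, ranges that overlapped. Its log2 fold change was 0.67 (SE 0.23, adjusted p = 0.0498). The call was lost with the 6 compared libraries alone and without any 1 library other than hypoxia replicate 2 or hypoxia + rSRGN replicate 3: the log2 fold change was then 0.68, 0.68 and 0.67 without control replicates 1, 2 and 3, 0.61 and 0.47 without hypoxia replicates 1 and 3, and 0.72 and 0.50 without hypoxia + rSRGN replicates 1 and 2.

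Id1, a BMP target that opposes differentiation, was at 33.5, 32.6 and 30.1 CPM in control, 18.0, 13.4 and 23.6 CPM in hypoxia and 11.2, 11.9 and 12.3 CPM in hypoxia + rSRGN. Control was highest and rSRGN lowest, with no overlap, and the hypoxia libraries were the most spread. It fell in hypoxia by 0.81 on the log2 scale (SE 0.14, adjusted p = 1.9e-05). With rSRGN it fell further, by 0.64 against hypoxia (SE 0.15, adjusted p = 0.0047) and by 1.45 against control (SE 0.14, adjusted p = 6.7e-09). The call against hypoxia rested on hypoxia replicate 3, the highest of its group: without it the log2 fold change was -0.42 (adjusted p = 0.046), below the fold limit, where the adjusted p over the alternatives ran from 1.8e-05 to 0.046. Without that library the number of genes called in this comparison was 321 in place of 525.

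Id3, a close relative of Id1, was at 73.2, 71.0 and 65.3 CPM in control, 96.1, 79.2 and 108 CPM in hypoxia and 65.0, 57.9 and 67.3 CPM in hypoxia + rSRGN. Hypoxia was above both other groups, which overlapped. The log2 fold change was 0.43 (SE 0.09, adjusted p = 3.2e-04) in hypoxia against control and -0.57 (SE 0.10, adjusted p = 4.1e-04) in rSRGN against hypoxia, both short of the fold limit. The second reached the limit with library size alone as the scaling (-0.60) and without hypoxia replicate 2 (-0.68), hypoxia + rSRGN replicate 1 (-0.59) or hypoxia + rSRGN replicate 3 (-0.61). Against control the rSRGN libraries differed by -0.14 (95% interval -0.34 to 0.06, adjusted p = 0.20).

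Id2, the ID gene also known from conduction system development, was at 38.2, 40.4 and 34.9 CPM in control, 36.3, 36.2 and 45.4 CPM in hypoxia and 28.2, 30.3 and 36.7 CPM in hypoxia + rSRGN. All 3 groups overlapped. The log2 difference of hypoxia from control was 0.05 (95% interval -0.17 to 0.28, adjusted p = 0.67), and that of rSRGN from hypoxia was -0.31 (95% interval -0.54 to -0.08, adjusted p = 0.061), with adjusted p from 0.024 to 0.33 over the alternatives. Between rSRGN and control it was -0.25 (95% interval -0.48 to -0.03, adjusted p = 0.045), below the fold limit, with adjusted p from 0.0083 to 0.21 over the alternatives; it was above 0.05 by DESeq2, with library size alone as the scaling, without control replicate 1 or 2 and without hypoxia + rSRGN replicate 1 or 2.

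Id4, the family member known for its role in neural cells, was at 3.64, 3.93 and 4.203 CPM in control, 6.98, 7.22 and 7.47 CPM in hypoxia and 5.005, 5.88 and 6.44 CPM in hypoxia + rSRGN. Hypoxia was highest and control lowest, with no overlap. It rose in hypoxia by a log2 fold change of 0.88 (SE 0.17, adjusted p = 1.2e-04). The difference of rSRGN from hypoxia was -0.32 (95% interval -0.67 to 0.03, adjusted p = 0.22). Against control it was 0.56 (SE 0.18, adjusted p = 0.0077), under the fold limit, which it passed with library size alone as the scaling (0.61), without control replicate 3 (0.60) or without hypoxia + rSRGN replicate 1 (0.65).

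**Figure D3:**
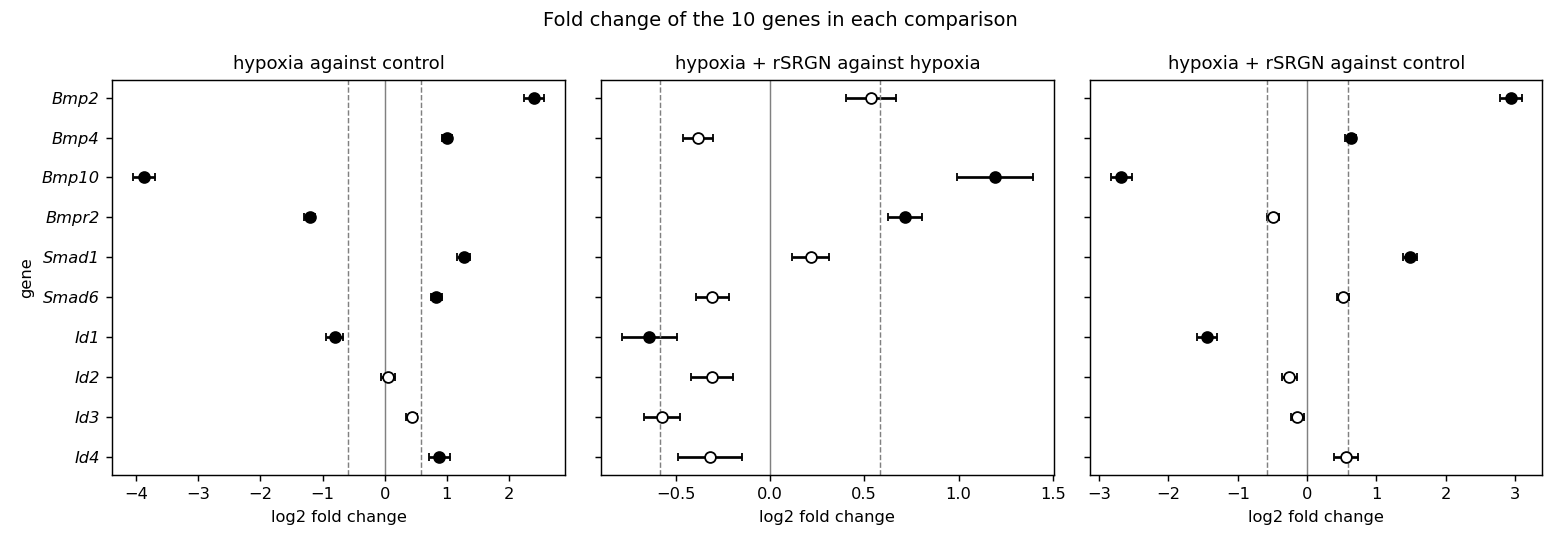
Log2 fold change of the 10 genes (horizontal axes) in each of the 3 comparisons, with the SE as bars; filled points are called, dashed lines mark the 1.5-fold limit. In hypoxia + rSRGN against hypoxia, Bmp10 (1.19), Bmpr2 (0.72) and Id1 (-0.64) are called.

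Of 12 direct BMP targets, all tested, 6 were higher and 1 lower in hypoxia (26.4% and 25.1% of all genes), with Id1 the lower one. Besides Id4, Smad6, Smad7 and Bambi, Msx1, a homeobox factor, rose by a log2 fold change of 0.66 (SE 0.20, adjusted p = 0.0060), which missed the fold limit without control replicate 1 (0.58) or without hypoxia replicate 3 (0.55). With rSRGN against hypoxia 2 of the 12 were called, both lower (0.859% of all genes), Id1 and Atoh8, the latter a helix-loop-helix factor named after its values were seen. Atoh8 was at 20.5, 20.9 and 19.5 CPM in control, 32.2, 26.6 and 34.5 CPM in hypoxia and 20.3, 15.995 and 24.3 CPM in hypoxia + rSRGN. Hypoxia was above both other groups, as for Id3. Between the hypoxic groups Atoh8 fell by 0.63 on the log2 scale (SE 0.13, adjusted p = 0.0020), a call lost without hypoxia replicate 3 (-0.55) or without hypoxia + rSRGN replicate 2 (-0.48), as that of Id1 was without hypoxia replicate 3 (-0.42), so both calls were lost without that library. The rise of Atoh8 over control (0.61) missed the fold limit without control replicate 3 (0.58), without hypoxia replicate 3 (0.53) or with all genes of at least 1 count kept (0.56). The median log2 fold change of the 12 targets was -0.31 with rSRGN against hypoxia, beside -0.03 over all genes tested. Id1, Id2, Id3, Id4 and Smad6 are also among the 10 genes of this report, whose median was the same. The median of the targets is therefore not a separate result.

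Of 8 helix-loop-helix factors that ID proteins bind or oppose, 3 were called in hypoxia against control, all higher (26.4% of all genes). Tcf21, a factor of epicardial cells and fibroblasts that is also among the fibroblast markers above, was at 70.8, 65.9 and 67.4 CPM in control, 113, 131 and 140 CPM in hypoxia and 77.8, 65.0 and 83.4 CPM in hypoxia + rSRGN. It fell with rSRGN against hypoxia by 0.76 on the log2 scale (SE 0.09, adjusted p = 3.8e-05), the 1 fibroblast marker of 8 called there (0.859% of all genes were lower). Twist1 and Twist2, mesenchymal factors, rose in hypoxia by log2 fold changes of 1.63 and 2.07. Hand2, a factor of heart chamber formation, was at 54.6, 58.9 and 56.1 CPM in control, 45.0, 44.6 and 50.7 CPM in hypoxia and 37.5, 34.8 and 33.3 CPM in hypoxia + rSRGN. It was lower with rSRGN than in control by 0.68 on the log2 scale (SE 0.09, adjusted p = 3.0e-07). The log2 differences of hypoxia from control (-0.27, SE 0.08, adjusted p = 0.0062) and of rSRGN from hypoxia (-0.41, SE 0.09, adjusted p = 0.0026) were below the fold limit. Of 4 convertases that cleave BMP precursors, Pcsk5 and Pcsk6 rose in hypoxia by log2 fold changes of 0.92 and 0.69 (26.4% of all genes rose), and Furin fell by 0.59 (25.1% fell). The Furin call was lost with library size alone (-0.52), with the replicate block (-0.58), without control replicate 2 (-0.53) or without hypoxia replicate 2 (-0.55).

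Per kilobase of exon, the order of levels changed between groups. In control the mean level was 39.0 CPM per kilobase for Id3, 27.7 for Id1, 24.1 for Smad6, 16.3 for Bmp4, 15.5 for Id2, 10.5 for Bmp10, 7.40 for Bmpr2, 2.90 for Smad1, 1.02 for Id4 and 0.840 for Bmp2. Bmp4 and Id2, neighbours in that order, differed by less than the SD of Id2 (1.14) and by about that of Bmp4 (0.777). In hypoxia Id3 was again highest at 52.6 CPM per kilobase, Id1 was at 15.8 and Bmp10 was lowest at 0.708. In hypoxia + rSRGN Id3 and Smad6, at 35.4 and 34.5 CPM per kilobase, differed by less than their SDs, and so did the lowest pair, Id4 at 1.501 and Bmp10 at 1.64.

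The genes whose log2 CPM followed these most closely over the 9 libraries were found by Pearson correlation, given as a description in libraries that share 3 groups. For Bmp10 they were D830005E20Rik (r = 0.998), Tmem163 (0.998) and Fbxo40 (0.997). Fbxo40, a muscle F-box protein, was at 118, 123 and 131 CPM in control, 7.25, 5.43 and 3.59 CPM in hypoxia and 13.3, 13.3 and 13.05 CPM in hypoxia + rSRGN, the same order as Bmp10. For Id1 they were Gm17655 (0.994), 1110012L19Rik (0.989) and Sirt4 (0.988). For Id3 they were Gm14719 (0.962), Gtf2h4 (0.960) and Elp2 (0.954), and for Id2 they were Uck1 (0.937), Thap11 (0.928) and Acy3 (0.913). The closest genes of Bmp10, Id1 and Id3 reached low levels. D830005E20Rik was at 0.405 to 0.967 CPM in hypoxia and Gm17655 at 0.193 to 0.238 CPM in hypoxia + rSRGN. Gm14719 was at 0.289 to 1.02 CPM over the 9 libraries.

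In the file's coordinates (mm10) Id1 lies on chromosome 2 from 152736251 to 152737410 and Bmp10 on chromosome 6 from 87428994 to 87437677, both on the plus strand. Of the 10 genes, 8 shared no exon bases with another gene. Bmp4 shared 89 exon bases with Gm15217, and Id4 shared 82 with A330033J07Rik and 171 with Gm49291, all on the opposite strand. The counting command names no strand option, so reads in those stretches cannot be assigned by strand. The overlapping genes had 32, 6 and 1 counts over the 9 libraries, beside 9506 for Bmp4 and 967 for Id4. How the shared stretches affected the Bmp4 and Id4 counts was not tested.

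Id3, Id4 and Smad6 are BMP targets whose 3 hypoxia libraries were above both control and rSRGN, so the RefSeq window of 300 bases at their RefSeq starts is shown (GRCm38.p6); between the hypoxic groups the 3 differences were below the fold limit, that of Id4 had an adjusted p of 0.22 and that of Smad6 depended on single libraries, as given above. A window was matched for 8 of the 10 genes; Id1 and Bmp2 were not matched. Capitals mark GGCGCC and GGAGCC, GC-rich SMAD elements, and CAGAC, the SMAD-binding element, on either strand. The windows lie at chr4:136143572-136143871 (Id3, plus strand), chr13:48260866-48261165 (Id4, plus strand) and chr9:64022010-64022309 (Smad6, minus strand). The gene start in the count file's annotation lay inside the window for 4 of the 8 genes, Smad6 among them; the Id3 window began 75 bases downstream of that start and the Id4 window ended 63 bases upstream of it.
Id3: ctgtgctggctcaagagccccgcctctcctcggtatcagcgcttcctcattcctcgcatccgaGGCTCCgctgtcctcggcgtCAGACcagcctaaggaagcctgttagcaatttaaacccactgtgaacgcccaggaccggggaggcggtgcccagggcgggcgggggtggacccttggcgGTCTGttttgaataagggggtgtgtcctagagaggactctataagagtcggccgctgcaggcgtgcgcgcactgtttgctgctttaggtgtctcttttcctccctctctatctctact
Id4: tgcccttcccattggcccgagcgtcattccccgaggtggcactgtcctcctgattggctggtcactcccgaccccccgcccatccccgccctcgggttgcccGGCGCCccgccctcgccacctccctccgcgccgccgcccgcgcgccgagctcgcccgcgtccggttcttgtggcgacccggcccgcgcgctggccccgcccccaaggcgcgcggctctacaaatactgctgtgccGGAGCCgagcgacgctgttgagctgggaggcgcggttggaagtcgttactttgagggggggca
Smad6: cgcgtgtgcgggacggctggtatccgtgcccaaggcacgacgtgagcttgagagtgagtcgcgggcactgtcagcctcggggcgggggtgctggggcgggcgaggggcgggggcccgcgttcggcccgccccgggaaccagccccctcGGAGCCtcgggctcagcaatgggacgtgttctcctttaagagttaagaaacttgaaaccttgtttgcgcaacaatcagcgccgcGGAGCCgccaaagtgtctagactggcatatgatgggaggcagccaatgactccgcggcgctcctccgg
GGAGCC was in 5 of the 8 windows, Id3, Id4 and Smad6 among them, and in 30.8% of all 32851 windows of this length. GGCGCC was in 3 of 8 (11.9% of all) and CAGAC in 1 of 8, that of Id3 (49.6% of all). ACGTG, the core of the element bound under low oxygen, was in 2 of 8 (19.6% of all), TGACG, a cyclic AMP element core, in 3 of 8 (20.8% of all) and the E-box CANNTG, which can hold ACGTG, in 3 of 8 (72.3% of all). The Bmp10 window held none of these letters. A match describes the letters and not a bound site.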

How the data were processed

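Per the labels, poly(A) RNA was sequenced on an Illumina instrument. The deposited table holds raw counts per gene that the authors made with featureCounts 2.0.1 (paired-end, exons summed by gene, GENCODE M25, no strand option); the submitters' processing notes name HISAT2 and mm10. Counts of all 9 libraries entered edgeR 4.0.16 (R 4.3.3) with filterByExpr, TMM factors and the quasi-likelihood test, 1 mean per group, with Benjamini-Hochberg adjustment over 16762 genes. The SE is the absolute log2 fold change divided by the square root of F, and 95% intervals rest on it. The scripts were tested on simulated data. Libraries of a group differed by more than sampling noise (chi-square per degree of freedom 3.63 to 13.1). Named were all 10 genes, up to 6 called genes of each list by size of change in hypoxia, the leading gene of each marker list, and the 3 genes most correlated (log2 CPM, prior count 2) with each of Id1, Id2, Id3 and Bmp10. Further genes were named after their values were seen, as marked where they appear. The members and lists were chosen with earlier results of these data known. The alternatives were other scalings, DESeq2 1.42.0, other filters, no fold limit, fewer libraries and the replicate block.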

Additional observations from a re-analysis of the deposited data

How the results depend on the processing

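The number of genes called stayed within 1.5 times the reported count under every alternative in hypoxia against control and in hypoxia + rSRGN against control. In hypoxia + rSRGN against hypoxia it was 2790 without the fold limit, by construction, and 321 to 699 when each library was left out in turn, where the cause was not tested. Of the 10 BMP and ID genes, 7 were called in that comparison without the fold limit and 2 to 5 with a library left out; in hypoxia + rSRGN against control 9 were called without the fold limit. The same 8 genes were called in hypoxia against control under each alternative that kept the fold limit. Id2, which was not called in hypoxia against control, had log2 fold changes from -0.063 to 0.11 with a library left out, changing sign; the cause was not tested. The replicate block gave 8550 called genes for hypoxia over control, 495 for rSRGN over hypoxia and 8096 for rSRGN over control, with 8, 3 and 5 of the 10 genes among them. The shared numbers did not pair the libraries: deviations from group means correlated at -0.037 to 0.021 over 9 same-numbered pairs, and 1 of 9 libraries correlated best with its own number.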
